A study of Mus musculus with 4 samples.

Results

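The genes described here encode the translation initiation factors of the mouse and the kinases and binding proteins that bear their name. They were chosen by name alone, as every deposited gene whose symbol is Eif, a digit from 1 to 6 and a run of letters or digits, which gave 55 of the 24418 genes listed. The question was whether TSLP changed their transcripts in regulatory T (Treg) cells, since the study asks whether TSLP acts on Treg cells through mTORC1 as well as through STAT5. Treg cells were sorted from spleens and lymph nodes of Foxp3YFP-Cre mice, in which the Foxp3 locus drives a yellow fluorescent protein and Cre, so that all 4 samples carried this allele. The control group was held with PBS and the treated group with 100 ng/mL TSLP, each for 3 h, and each had 2 samples, here called PBS 1 and 2 and TSLP 1 and 2. The study's methods give the age of its mice as 8 to 12 weeks, and nothing says whether the samples of a group came from separate mice, so that the p-values measure only the spread between these samples, which may be technical.

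Libraries were made from purified total RNA, and the methods of the study do not say whether mRNA was selected. The values of each gene are read counts that the authors scaled by library, called normalized counts here. They could be turned back into whole reads, of which PBS 1 had 11328132, PBS 2 had 10724392, TSLP 1 had 11761234 and TSLP 2 had 10271571. The initiation factor genes took 1.22%, 1.1%, 1.14% and 1.16% of these reads, in the same order. Foxp3, which defines Treg cells, was read at 222, 472, 407 and 470 cpm (reads per 1000000 reads on genes), with PBS 1 the lowest. Cd4 was read at 512, 587, 528 and 602 cpm, with PBS 1 again the lowest but by less. Of the other Treg markers, Ikzf2 was also lowest in PBS 1 (568 cpm, against 953 to 996) and so were Il2ra (342, against 433 to 498) and, by less, Cd3e (232, against 239 to 261). Tnfrsf18 (532, against 348 to 427) and Ctla4 (1284, against 1142 to 1253) were highest there. Markers of other cells were low. The 6 myeloid genes summed to 61.5 cpm in PBS 1 and to 40.1, 41.2 and 42.4 in the others, with Cst3 the most abundant and Adgre1 at 0 in every library. The 4 B cell genes summed to 0.618 cpm in PBS 1 and to 10.4, 5.02 and 9.35 in the others. Cd79b was the most abundant of them, and Ms4a1 was at 0 in 3 libraries. The 2 CD8 T cell genes summed to at most 13.4 cpm (with Cd8b1 the more abundant), and 4 of the 5 erythroid genes had no reads. Since these are bulk samples, fewer cells that express a gene and less RNA of it per cell cannot be told apart.

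Initiation begins when eIF2, carrying GTP and the initiator tRNA, joins the small ribosomal subunit with the help of eIF1, eIF1A, eIF3 and eIF5. The complex is brought to the cap of the mRNA by eIF4F, which consists of the cap-binding protein eIF4E, the scaffold eIF4G and the helicase eIF4A. Initiation is held back at 2 known points. The 4E-BP proteins sequester eIF4E until mTORC1 phosphorylates them, and the eIF2 kinases phosphorylate eIF2 so that its exchange factor eIF2B cannot recharge it. Both controls act on proteins, and the values below are of transcripts only.

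MYC is a known activator of Eif4e through the DNA letters CACGTG, called an E-box, so that the promoters of the initiation factor genes were read for them. RefSeq (GRCm38.p6) gave a window of 300 bases, from 250 before an annotated start to 50 after it, for 43 of the 55 genes. CACGTG, which reads the same on both strands, stood in a window of 10 of the 43 genes (23.3%), against 8.09% of the 27025 genes with a window. Genes with several annotated starts have several windows, and counted by window the shares were 21.4% of 56 and 7.15% of 32851. The sequences that carry these letters in genes of the cap-binding machinery are shown 5′ to 3′ on the strand of the gene, with the E-box in capitals.
Eif4e, chr3:138527031-138527054, plus strand: gccagcgacCACGTGatcactttt
Eif4e, chr3:138527195-138527218, plus strand: cacgtccgtCACGTGggcaggagc
Eif4g1, chr16:20672664-20672687, plus strand: agtgggtgtCACGTGatggggcgg
Eif4g1, chr16:20672733-20672756, plus strand: tgcgccggtCACGTGgggcgctgg
Eif4a1, chr11:69672598-69672621, minus strand: tcgcctccgCACGTGtaaaggtgc
Eif4h, chr5:134639491-134639514, minus strand: ccgccgcacCACGTGggccgcaga
The other 6 genes with an E-box were Eif1b, Eif3a, Eif3f, Eif3k, Eif5a and Eif5a2. The letters TTCNNNGAA, to which STAT5 can bind, stood in a window of 5 of the 43 genes (11.6%), namely Eif2ak2, Eif2ak3, Eif3c, Eif3g and Eif4e, against 9.55% of all genes with a window. The letters TGATGNAA of the stress factor ATF4, searched on both strands, stood in 1 of the 43 genes, Eif2s3x, and in 4.51% of all genes with a window. A match of letters does not show that a factor binds there.

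The class of transcripts whose translation is known to depend most on mTORC1 starts with a C followed by a run of C and T. A C at the annotated start followed by at least 4 further C or T was found for 2 of the 43 genes, Eif2s3x and Eif3f (4.65%), against 3.01% of all genes with a window. The run from the annotated start is in capitals in these sequences, which hold 15 bases before that start and 15 from it.
Eif3f, chr7:108934400-108934429, plus strand: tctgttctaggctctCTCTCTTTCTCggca
Eif2s3x, chrX:94212637-94212666, minus strand: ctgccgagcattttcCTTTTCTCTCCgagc
An annotated start can lie a few bases from the one used, so that such a run can be missed or found by it.

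Levels were compared between genes as reads per kilobase of exon, scaled so that each library sums to 1000000. The length counts every annotated exon, whether or not the transcripts present hold it, so ranks and ratios between genes depend on it. All 55 genes had an exon length in the GENCODE annotation, and 52 of them had reads. Their median level was 131, against 18.6 over the 13376 genes with a length and a read, and 19 of them were among the 1000 most abundant of 23307 genes. Eif3h, on chromosome 15 (51786558 to 51865523, reverse strand of GRCm38), was the most abundant at a mean of 847 (rank 142), followed by Eif3f at 720 (rank 191), Eif4g2 at 691 (rank 201), Eif1 at 639 (rank 224) and Eif5a at 635 (rank 230). Eif4g2 encodes a relative of eIF4G that lacks the binding site for eIF4E, and it had 16786 ± 1918 (SD, n = 2) normalized counts under PBS and 19557 ± 1198 (SD, n = 2) under TSLP, the most of any initiation factor gene. It took 11.6% of the reads on these genes in PBS 1 and 15.1% to 16.2% in the other libraries. The scaling per length set PBS 1 lower against the other libraries than the normalized counts did, by 0.18 below the mean shift of the 4 libraries on the log2 scale, while PBS 2 lay 0.10 above it. Differences between groups are therefore given on normalized counts.

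**Figure D1:**
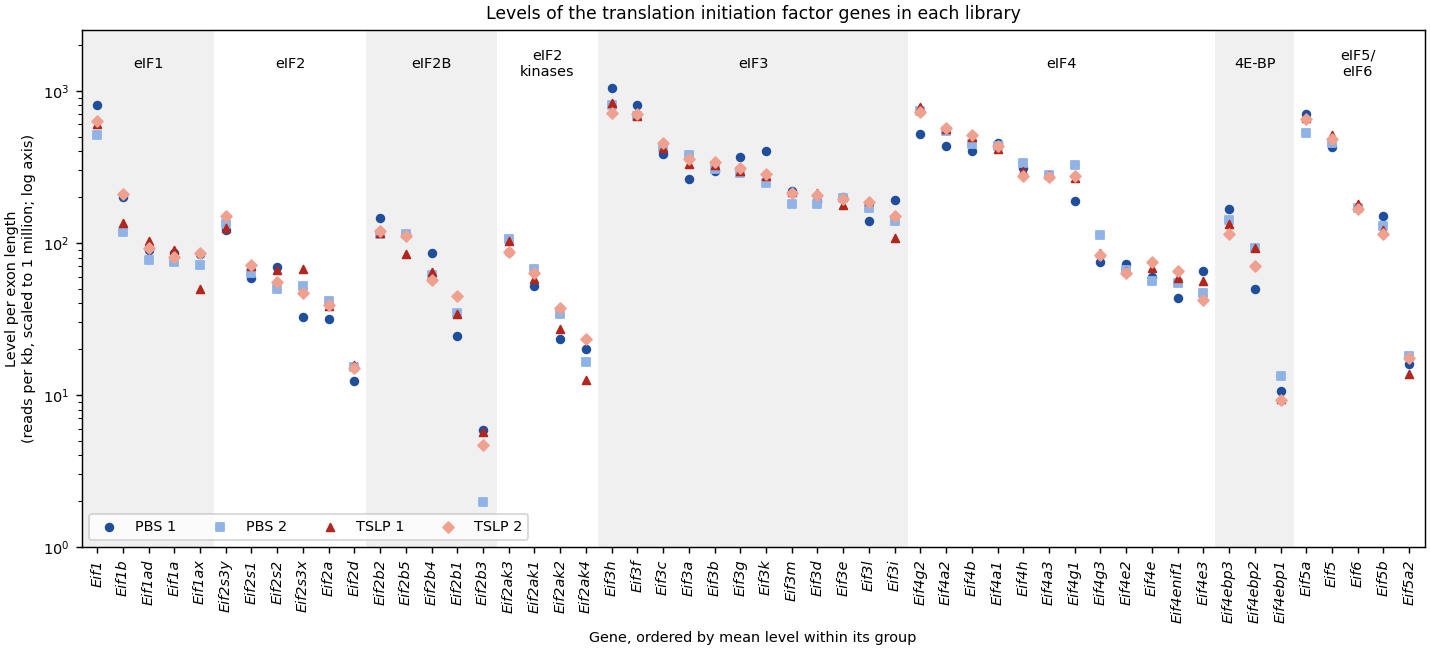
Level per exon length (reads per kilobase, scaled to 1000000; log axis) of the 52 genes with reads, ordered within each group, with a point for each library and no averaging. The eIF3 genes lie between means of 147 (Eif3i) and 847 (Eif3h), above most eIF2, eIF2B and eIF2 kinase genes, and Eif2b3 and Eif4ebp1 are the lowest.

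The subunits of eIF3, the largest of the factors, were among the most abundant. Among the 12 eIF3 genes with reads the highest mean level per length, that of Eif3h, was 5.75 times the lowest, that of Eif3i, with a median of 309, and 9 of the 12 were among the 1000 most abundant genes. The 5 genes of eIF2B spanned a ratio of 27.2, from 4.57 for Eif2b3, the gamma subunit, to 124 for Eif2b2, the beta subunit. The exon lengths used were 6520 bases for Eif2b3 and 1885 for Eif2b2, and the part of length in this ratio was not tested. For eIF5A, which carries the amino acid hypusine, Eif5a lay at 635 and its relative Eif5a2 at 16.3. In the 12 eIF4 genes with reads the levels ran from 52.5 for Eif4e3 to 691 for Eif4g2. Eif4e itself lay at 64.6 (rank 3222), under the level of the helicase genes Eif4a2 (529) and Eif4a1 (433).

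No reads were found in any library for Eif3j1, Eif3j2 and Eif4e1b, which allows up to 3 reads, or 0.255 to 0.292 cpm. This limit covers counting error only, since copies made by PCR were counted as reads. Eif3j1 and Eif3j2 are near-copies, and of the 50-base windows in the transcripts of Eif3j2, 91.8% also stood in a transcript of another gene, most of them in Eif3j1. For Eif3j1 the share was 36.9%. The reads had 50 bases, and how reads with several positions were counted is not given in the sources used here. Whether this accounts for the absence of reads on both genes was not tested, and no level of eIF3j is given. The same share was 34.6% for Eif2s3x, 28.4% for Eif4a1, 20.3% for Eif3h and 65.5% for Eif4ebp3, whose counts are uncertain for this reason.

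TSLP was compared with PBS by limma on log2(normalized count + 1). None of the 55 genes was called. Of the 52 genes that could be tested, 0 passed an adjusted p of 0.05 (Benjamini-Hochberg) and 0 passed an unadjusted p of 0.05. Of all 11392 genes tested 0 (0%) passed the adjusted threshold and 427 (3.75%) the unadjusted one, with 192 (1.69%) of them higher and 235 (2.06%) lower under TSLP. edgeR and DESeq2 on the recovered reads also gave 0 calls at an adjusted p under 0.05 over all genes, and each gave 234 genes (2.05%) at an unadjusted p under 0.05, with 0 of the 52 genes among them. The study, which used DESeq2, shows genes as significantly raised or lowered by TSLP, at a threshold that its text does not give. The log2 differences of the 52 genes (log2 fold changes, TSLP minus PBS, on the scale tested) ran from −0.44 for Eif3i to 0.52 for Eif2b3 with a median of −0.008, against 0.012 over all genes tested. They were positive for 26 genes and negative for 26, and the split was 23 and 29 by edgeR and by DESeq2 and 29 and 23 on the scale per exon length. Only Eif2b3 lay past 0.5 in either direction, and 0 lay past 1, where 26.7% and 12.3% of all genes tested did. For Eif2b3 edgeR gave 0.25 and DESeq2 0.26, so that it lay past 0.5 in limma only. The 52 genes were more abundant than most genes, and the part of abundance in their narrow range was not tested. With 2 libraries in each group an exact permutation test of a single gene cannot go below p = 0.333.

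The precision of the comparison was limited. The 95% interval of the log2 difference reached 0.80 to either side in the median of the 52 genes, a factor of 1.74, and from 0.66 for Eif3l to 2.07 for Eif2b3. For 28 of the 52 genes the interval lay within a 2-fold change in either direction. When the spread was estimated with a trend over the mean, which was added once the data had been seen, the median reach was 0.57 and the interval lay within 2-fold for 41 genes. The sign of the log2 difference turned in 32 of the 52 genes when some 1 library was left out, in 19 without PBS 1, 11 without PBS 2, 5 without TSLP 1 and 7 without TSLP 2. A change smaller than these limits could have been missed with these libraries. So could a larger one, since the intervals are not adjusted for the number of genes tested.

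**Figure D2:**
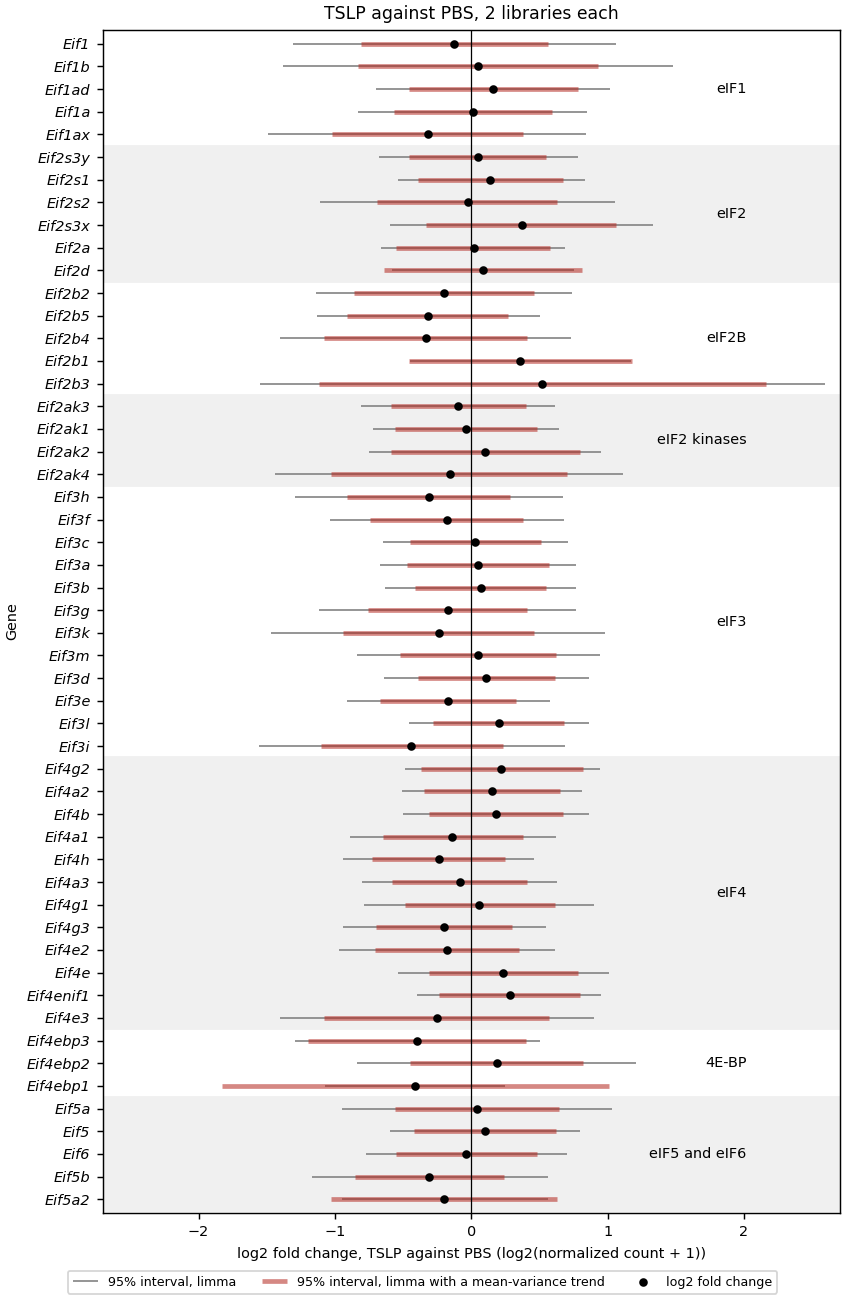
Log2 fold change, TSLP against PBS, of the 52 genes tested (points), with 95% intervals from limma (grey lines) and from limma with a mean-variance trend (red bars). All intervals of both kinds include 0, and the values run from −0.44 (Eif3i) to 0.52 (Eif2b3).

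The groups of libraries overlapped for most genes. In 13 of the 52 genes (25%) they did not, with both TSLP libraries above both PBS libraries in 8 and below them in 5, where 14.5% of all genes tested lay above, 14.4% below and 28.9% either way. The 8 genes above were Eif2b1, Eif2d, Eif2s1, Eif3l, Eif4a2, Eif4b, Eif4enif1 and Eif4g2, and the 5 below were Eif2b5, Eif4ebp1, Eif4ebp3, Eif4g3 and Eif4h. By group, 6 of the 12 eIF4 genes tested had no overlap, 1 of the 12 eIF3 genes and 0 of the 5 eIF1 genes. On the scale per exon length the groups did not overlap in 17 of the 52 genes (32.7%), against 27% of all genes with a length, so that the share lay below that of all genes on one scale and above it on the other. The difference of the TSLP and PBS means had a median size of 0.17 on the log2 scale over the 52 genes. PBS 1 and PBS 2 differed by a median of 0.34 and TSLP 1 and TSLP 2 by 0.10. Over all genes tested these 3 medians were 0.26, 0.48 and 0.31.

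The 3 genes of the 4E-BP proteins, which hold back eIF4E, lay apart in level. Eif4ebp1, on chromosome 8 from 27260329 to 27276674 on the forward strand, was low, at 10.6 per length (rank 7902). It had 71 and 70 reads under PBS and 56 and 49 under TSLP, or normalized counts of 68.8, 70.0, 52.8 and 51.2. The TSLP libraries were the lower ones and did not overlap those of PBS. The mean was 69.4 ± 0.862 (SD, n = 2) normalized counts for PBS and 52.0 ± 1.09 (SD, n = 2) for TSLP, a log2 difference of −0.41 ± 0.23 (SE, 95% interval −1.07 to 0.25, unadjusted p = 0.156 and adjusted p = 1.0, limma, Benjamini-Hochberg). This p was the smallest of the 52 genes. With the mean-variance trend the interval was −1.83 to 1.01 and the unadjusted limma p was 0.529. Counting error alone gives 49 reads an exact Poisson interval of 36.3 to 64.8 and 71 reads one of 55.5 to 89.6, which overlap.

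Eif4ebp2 had normalized counts of 839 and 1289 under PBS and of 1367 and 1023 under TSLP, with the groups overlapping. Its log2 difference of 0.19 ± 0.36 (SE) turned to −0.12 without PBS 1 and to −0.024 without TSLP 1, and was 0.49 without PBS 2. Eif4ebp3 had 367 and 256 under PBS and 252 and 214 under TSLP, where the higher TSLP library lay just under the lower PBS library. Its log2 difference of −0.40 ± 0.31 (SE) was −0.14 without PBS 1. Per exon length Eif4ebp2 exceeded Eif4ebp1 in every library, 4.63-fold in PBS 1, 6.99-fold in PBS 2, 9.84-fold in TSLP 1 and 7.59-fold in TSLP 2. Their target Eif4e, on chromosome 3 from 138526179 to 138559696 on the forward strand, had normalized counts of 1054 and 815 under PBS and of 1053 and 1127 under TSLP. TSLP 1 lay just under PBS 1, and the log2 difference of 0.23 ± 0.27 (SE) was 0.048 without PBS 2 and 0.42 without PBS 1.

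**Figure D3:**
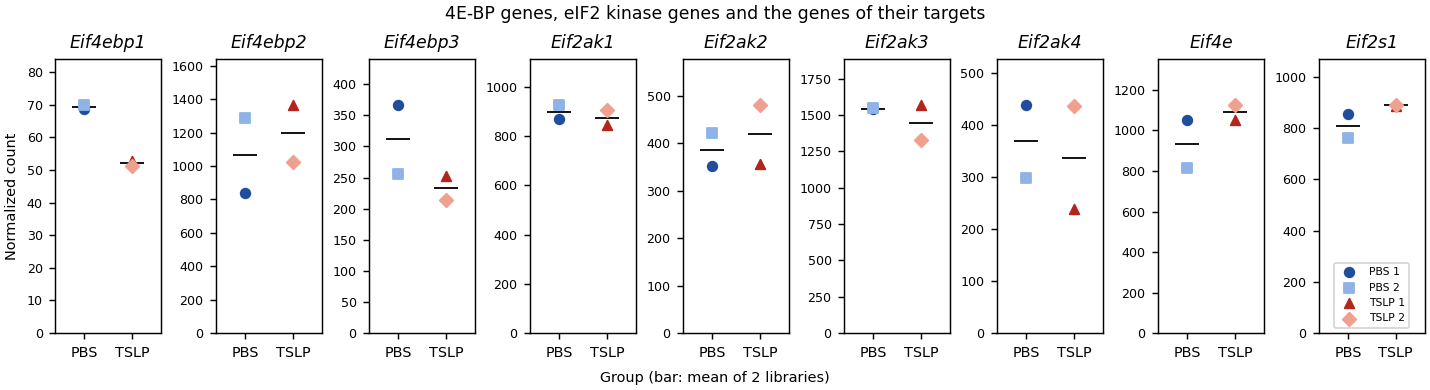
Normalized counts of the 3 4E-BP genes, the 4 eIF2 kinase genes, Eif4e and Eif2s1, each on its own linear axis from 0, with a point for each library and a bar for the mean of 2 libraries. The groups are apart in Eif4ebp1, Eif4ebp3 and Eif2s1 and overlap in the other 6 genes.

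The helicase, scaffold and accessory genes of the cap-binding complex held no gene that passed the test. The 12 eIF4 genes tested had a median log2 difference of −0.013, with 6 positive and 6 negative. Eif4a2 had normalized counts of 6805 and 7082 under PBS and of 7701 and 7700 under TSLP. Eif4b, which stimulates the helicase, had 5300 and 4839 under PBS and 5687 and 5785 under TSLP. In both genes the TSLP libraries were the higher ones, with log2 differences of 0.15 (standard error 0.23) and 0.18 (standard error 0.24). Eif4enif1, whose protein carries eIF4E into the nucleus, had 815 and 833 under PBS and 959 and 1042 under TSLP, a log2 difference of 0.28 with a 95% interval from −0.40 to 0.95. It was among the 3 positive genes with the smallest p (0.307 unadjusted by limma). Eif4g2 had 15430 and 18142 under PBS and 20404 and 18710 under TSLP, a log2 difference of 0.22 that was 0.11 without PBS 1. Eif4e3, the lowest of this group, had a log2 difference of −0.25 ± 0.40 (SE) that was 0.13 without PBS 1 and −0.64 without PBS 2.

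In eIF2, its subunits and Eif2a and Eif2d, which are not subunits of it, had log2 differences from −0.027 to 0.37, and none passed the test. Eif2s1, the alpha subunit that the kinases phosphorylate, had normalized counts of 856 and 760 under PBS and of 887 and 891 under TSLP, a log2 difference of 0.14 ± 0.24 (SE). Eif2d, the lowest of the group, had 268 and 273 under PBS and 294 and 280 under TSLP, a log2 difference of 0.086. The gamma subunit has a gene on the X chromosome, Eif2s3x (from 94188707 to 94212862), and one on the Y chromosome, Eif2s3y (from 1010543 to 1028847). Eif2s3y had normalized counts of 1476 and 1337 under PBS and of 1327 and 1588 under TSLP, with the groups overlapping and a log2 difference of 0.048 ± 0.26 (SE). Ddx3y, another gene of the Y chromosome, was read at 475 to 634 cpm, and Xist, which females express, had 0, 10, 1 and 1 reads. Eif2s3x had 367 and 477 under PBS and 653 and 446 under TSLP. TSLP 1 was the highest and TSLP 2 lay between the PBS libraries, and the log2 difference was 0.37 ± 0.34 (SE, unadjusted p = 0.342 and adjusted p = 1.0, limma, Benjamini-Hochberg). It was 0.092 without TSLP 1 and 0.18 without PBS 1. Per exon length Eif2s3y exceeded Eif2s3x by 3.68-fold, 2.57-fold, 1.86-fold and 3.26-fold in PBS 1, PBS 2, TSLP 1 and TSLP 2, a ratio that is uncertain because many windows of Eif2s3x are shared with other genes and none of Eif2s3y are.

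The 4 eIF2 kinases answer different stresses, and their genes all had reads. Eif2ak3, the kinase PERK of the endoplasmic reticulum, was the most abundant, with normalized counts of 1538 and 1545 under PBS and of 1570 and 1325 under TSLP. Eif2ak1, the kinase that senses haem, had 869 and 928 under PBS and 844 and 908 under TSLP. Eif2ak2, the kinase PKR that binds double-stranded RNA, had 351 and 422 under PBS and 356 and 481 under TSLP. In all 3 the groups overlapped, and the log2 differences were −0.10, −0.037 and 0.10, with standard errors of 0.25, 0.24 and 0.30. Eif2ak4, the kinase GCN2 that senses uncharged tRNA, had 439 and 298 under PBS and 238 and 437 under TSLP, with a wider gap inside each group than between the group means. Its log2 difference of −0.16 ± 0.44 (SE) was 0.11 without PBS 1, 0.27 without TSLP 1 and −0.60 without TSLP 2.

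The genes of eIF2B, the exchange factor, had a median log2 difference of −0.20 over 5 genes, which was 0.12 without PBS 1, −0.46 without PBS 2 and −0.052 with the trend over exon length removed. Eif2b1, the alpha subunit, had normalized counts of 184 and 217 under PBS and of 226 and 293 under TSLP, a log2 difference of 0.36 ± 0.28 (SE) that was among the 3 positive ones with the smallest p (0.274 unadjusted by limma). It was 0.18 without TSLP 2 and 0.55 without TSLP 1. Eif2b5, the catalytic epsilon subunit, had 875 and 721 under PBS and 562 and 721 under TSLP, with TSLP 2 below PBS 2 by less than 1 count. Its log2 difference of −0.32 ± 0.28 (SE) was −0.14 without TSLP 1, −0.18 without PBS 1 and −0.50 without TSLP 2. Eif2b2 had 811 and 521 under PBS and 561 and 571 under TSLP, where both TSLP libraries lay between the PBS libraries. Eif2b3 had 117 and 31 reads under PBS and 101 and 74 under TSLP. PBS 2 stood apart from the other libraries, and the log2 difference of 0.52 ± 0.72 (SE) was 1.44 without PBS 1 and −0.40 without PBS 2.

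The 12 eIF3 genes tested had a median log2 difference of −0.069, with 6 positive and 6 negative. Eif3i had normalized counts of 2091 and 1251 under PBS and of 1023 and 1394 under TSLP. PBS 1 was the highest library, and the log2 difference of −0.44 ± 0.39 (SE, 95% interval −1.56 to 0.69) was −0.066 without it. Eif3h had 4911 and 3143 under PBS and 3428 and 2914 under TSLP, a log2 difference of −0.31 that was 0.0082 without PBS 1. Eif3f had 6898 and 4810 under PBS and 5068 and 5104 under TSLP, again with PBS 1 the highest. Eif3l was the only eIF3 gene whose groups did not overlap, with 1491 and 1501 under PBS and 1743 and 1697 under TSLP, a log2 difference of 0.20 ± 0.23 (SE, unadjusted p = 0.437 and adjusted p = 1.0, limma, Benjamini-Hochberg). Eif3a, the scaffold of the complex, had 6711 and 7999 under PBS and 7381 and 7819 under TSLP, and a log2 difference of 0.052.

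The eIF1 genes and the genes of eIF5 and eIF6, with which Eif5a and Eif5a2 were grouped by name, held none that passed the test either. Eif1, which keeps the complex scanning, had normalized counts of 4982 and 2604 under PBS and of 3259 and 3341 under TSLP, with both TSLP libraries between the PBS libraries and a log2 difference of −0.13 ± 0.41 (SE) that was 0.34 without PBS 1 and −0.59 without PBS 2. Eif1ax had 1307 and 918 under PBS and 675 and 1138 under TSLP. Eif5, which makes eIF2 hydrolyse GTP, had 8574 and 7463 under PBS and 8888 and 8272 under TSLP, a log2 difference of 0.10 ± 0.25 (SE). Eif5a had 4905 and 3032 under PBS and 4002 and 3925 under TSLP, a log2 difference of 0.04 ± 0.34 (SE) that was 0.39 without PBS 1 and −0.31 without PBS 2. Eif5a2 had 236 and 219 under PBS and 177 and 223 under TSLP, a log2 difference of −0.20.

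PBS 1 stood apart from the other libraries in the initiation factor genes. By normalized counts it was the highest of the 4 libraries in 30 of them (57.7%), against 32.4% of all genes tested, and the lowest in 12 (23.1%), against 35.6%. PBS 2 was the lowest in 22 (42.3%), against 21.8%. On the scale per exon length PBS 1 was the highest in 18 of 52 (34.6%) and the lowest in 21 (40.4%), against 19.0% and 48.3% of all genes, so that its position depended on the scale. The deviation of PBS 1 moved with the length of the gene. In the 18 genes with the shortest exons (744 to 2891 bases) PBS 1 exceeded the mean of the other 3 libraries by a median of 0.50 on the log2 scale and was the highest in 16. In the 17 genes of 3346 to 5670 bases the median was 0.064, and in the 17 of 5784 to 11063 bases it was 0.06, with PBS 1 the highest in 6 and the lowest in 7. Across the 52 genes, which share these libraries and are not replicates, Spearman's rho of this deviation with exon length was −0.438, and it was −0.346 over 10944 genes tested that have a length. For PBS 2 against the other 3 libraries rho was 0.383 across the 52 genes, for TSLP 1 0.235 and for TSLP 2 0.203, against 0.209, 0.165 and 0.08 over the 10944 genes.

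**Figure D4:**
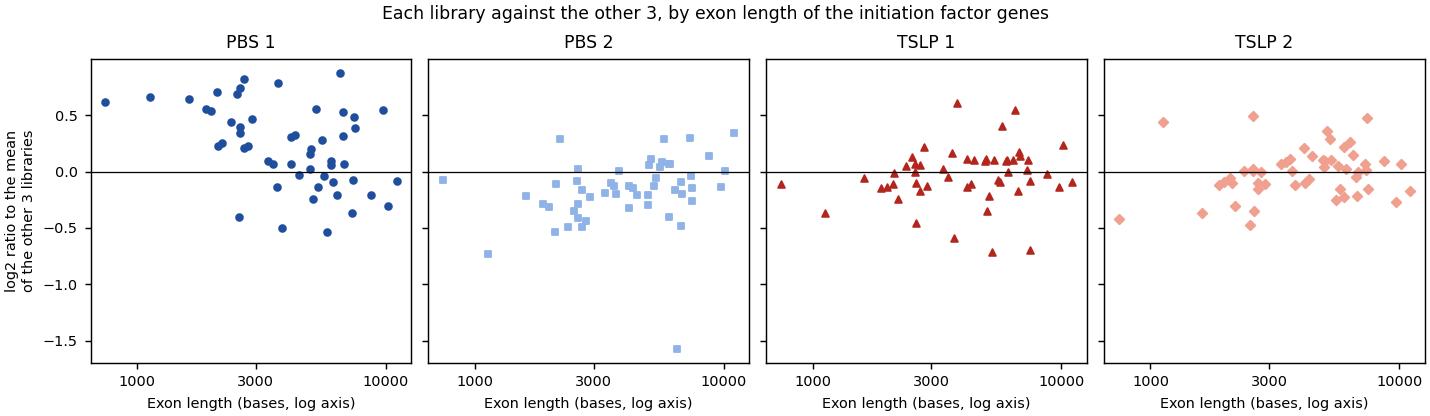
Log2 ratio of each library to the mean of the other 3 for the 52 genes, by exon length (bases; log axis), with a point for each gene. In PBS 1 most genes of short exons lie above 0 (rho −0.438), while in PBS 2 most genes lie below 0 and the points rise with length (rho 0.383).

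The comparison of TSLP with PBS carried the same trend. The median log2 difference was −0.18 in the 18 genes with the shortest exons, 5 of them positive, 0.048 in the 17 of middle length and 0.052 in the 17 longest. With the trend of each library over exon length removed, the medians were −0.04, 0.08 and −0.019. The part of the other cells' markers and of the low Foxp3 count of PBS 1 in its position was not tested.

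The genes with an E-box were set beside Myc, a choice made after seeing the data. In these 10 genes 5 log2 differences were positive and 5 negative, with a median of −0.048, and 0 had an unadjusted p under 0.05. In the 32 genes with a window, reads and no E-box the median was 0.039. Myc had normalized counts of 2480 and 1812 under PBS and of 2175 and 1621 under TSLP, with the groups overlapping and a log2 difference of −0.17 ± 0.32 (SE).

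A list of 43 partner genes around the initiation factors, with poly(A)-binding proteins, eIF4E kinases, genes of the eIF2 stress response and factors of elongation and termination, was looked at in the same fit. Of these, 42 were in the file and 41 were tested, with 0 higher and 0 lower at an unadjusted p under 0.05, against 1.69% and 2.06% of all genes tested. Their log2 differences were positive in 18 and negative in 23, with a median of −0.029, and the sign turned in 27 of the 41 when some 1 library was left out. Groups did not overlap in 13 of the 41 (31.7%), with TSLP above PBS in 8 and below in 5, near the 28.9% of all genes tested.

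In the stress response downstream of eIF2, Atf4, whose mRNA is translated more when eIF2 is phosphorylated, had normalized counts of 8080 and 4655 under PBS and of 5778 and 4551 under TSLP. Its target Ddit3 had 602 and 391 under PBS and 497 and 321 under TSLP. Ppp1r15a, which encodes the phosphatase subunit that reverses the phosphorylation of eIF2, had 19013 and 8788 under PBS and 14719 and 7693 under TSLP. In these 3 genes the groups overlapped and the libraries numbered 1 were the higher ones in both groups. The log2 differences were −0.26 for Atf4, −0.28 for Ddit3 and −0.28 for Ppp1r15a, with standard errors of 0.39, 0.40 and 0.58. Without PBS 1 all 3 turned positive, to 0.14, 0.03 and 0.28, and without TSLP 2 those of Ddit3 and Ppp1r15a did, to 0.036 and 0.19. Asns, also on the list but named after its values were seen, was low. It had normalized counts of 45.6 and 73 under PBS and of 25.4 and 34.5 under TSLP. Its groups did not overlap, and its log2 difference was −0.94 ± 0.37 (SE). The unadjusted p was 0.0699 by limma, 0.252 by limma with the trend, 0.317 by edgeR and 0.319 by DESeq2. The difference ran from −1.27 without PBS 1 to −0.60 without PBS 2. Ppp1r15a was abundant, at 1607 per exon length (rank 48), and Atf4 lay at 925 (rank 123).

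Around eIF4F, the poly(A)-binding protein gene Pabpc1 had normalized counts of 20427 and 21798 under PBS and of 25593 and 23581 under TSLP, with both TSLP libraries the higher ones and a log2 difference of 0.22 ± 0.24 (SE). Pdcd4, whose protein inhibits eIF4A, had 2107 and 2154 under PBS and 2203 and 2187 under TSLP, a log2 difference of 0.043 ± 0.23 (SE). Of the kinases of eIF4E, Mknk2 had 10616 and 9650 under PBS and 10800 and 8474 under TSLP and overlapped between the groups. Mknk1 had 399 and 415 under PBS and 251 and 396 under TSLP, the lower pair, a log2 difference of −0.37 ± 0.33 (SE) that was −0.04 without TSLP 1 and −0.70 without TSLP 2. Eef2k, the kinase that stops elongation, was low, with normalized counts of 43.6 and 14 under PBS and of 70.7 and 46.0 under TSLP, and its log2 difference of 1.17 had a standard error of 0.66 (unadjusted p = 0.158 and adjusted p = 1.0, limma, Benjamini-Hochberg). It was 0.38 without PBS 2, 0.86 without TSLP 1 and 1.95 without PBS 1. Dhps, named after its values were seen, encodes the enzyme that begins the hypusine modification of eIF5A. It had 489 and 333 under PBS and 256 and 223 under TSLP, below PBS in both TSLP libraries, with a log2 difference of −0.76 ± 0.32 (SE, unadjusted p = 0.0806 by limma, 0.0522 by limma with the trend, 0.0408 by edgeR and 0.0683 by DESeq2, Benjamini-Hochberg adjusted p = 1.0 by limma) that was −0.48 without PBS 1 and −1.03 without PBS 2 (unadjusted p = 0.0399 by limma).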

How the data were processed

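Per the labels and the methods of the study, single-end reads of 50 bases from a directional library kit were mapped to mm10 (HISAT2) and counted on genes (HTSeq). The authors deposited a signal, in which the counts of a library are divided by its size factor (0.9569 to 1.0615). The annotation and strand setting of the counting are not given in the sources used here. All values lay within 0.01 of a whole multiple of a step in each library (100%), which gave back the reads. The main test was limma 3.58.1 (R 4.3.3), without a mean-variance trend, on log2(normalized count + 1) over 11392 genes with at least 10 in at least 2 libraries, two-sided, with Benjamini-Hochberg adjustment. A larger pseudocount lowered the log2 difference of low genes, for Eif2b3 from 0.53 at 0.5 to 0.52 at 1 and 0.43 at 10. Against edgeR (0.25) and DESeq2 (0.26) the main scale gave the larger value for this gene. edgeR 4.0.16 and DESeq2 1.42.0 on the recovered reads were alternatives, beside other filters, pseudocounts and normalizations, a replicate block, fits with the length trend taken out and fits without 1 library. Exon lengths (union of exons) and positions came from GENCODE M21 (GRCm38, the build of mm10), where 23307 of 24418 names had a unique length, and windows of 50 bases from its transcripts. The fits were tested on simulated data. Genes named are the 8 most abundant per length, the 3 positive and 3 negative with the smallest p, the highest and lowest of each group, the 4E-BP and eIF2 kinase genes, Eif2s3x, Eif2s3y and 8 partners, and others by the overlap of their groups or as stated. The genes and lists were chosen with earlier results of these data known.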

Additional observations from a re-analysis of the deposited data

How the results depend on the processing

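None of the 52 genes had an adjusted p under 0.05 under any of 14 alternatives, with a smallest adjusted p of 0.45 (limma without PBS replicate 2, Benjamini-Hochberg adjustment). Over all genes, a pseudocount of 0.5 called 44 genes at an adjusted p under 0.05, none of them an initiation factor gene, and every other alternative called 0. Genes at an unadjusted p under 0.05 numbered 427 by limma, 192 with a mean-variance trend (chosen after seeing the data), 234 by edgeR and by DESeq2 and 1263 without PBS replicate 2. With the length trend removed the 4E-BP median was −0.19 in place of −0.40 and that of eIF2B −0.052 in place of −0.20, while eIF4 (0.018) and eIF5 and eIF6 (0.041) changed sign. Leaving out each library in turn, where a lone sample is assumed to vary like the other group, gave 0 to 1 initiation factor genes at an unadjusted p under 0.05. The 1 gene was Eif2b3 without PBS 1 (log2 fold change 1.44, unadjusted p = 0.0244 by limma), and of the partner genes Eef2k (1.95, unadjusted p = 0.0295 by limma) and Asns (−1.27, unadjusted p = 0.0454 by limma) passed there too, and Dhps without PBS 2 (−1.03, unadjusted p = 0.0399 by limma). Groups did not overlap in 23 to 46 genes, as fewer samples leave fewer overlaps (56.8% to 76.3% of all genes). The median of the 52 genes was −0.22 without PBS 2 and 0.10 without PBS 1. By group the medians ran from −0.47 to 0.34 (eIF1), 0.067 to 0.15 (eIF2), −0.46 to 0.12 (eIF2B), −0.10 to 0.14 (eIF2 kinases), −0.28 to 0.12 (eIF3), −0.021 to 0.075 (eIF4), −0.43 to −0.14 (4E-BP) and −0.25 to 0.10 (eIF5 and eIF6). The log2 difference of PBS 1 and PBS 2 was not correlated with that of TSLP 1 and TSLP 2 (correlation 0.00072 across 11392 genes). A single value over all genes cannot show whether some genes moved with the replicate number, as Atf4, Ddit3 and Ppp1r15a did. The replicate block left the median at −0.008 and called 0 genes. Low genes rested on few reads, from 49 to 71 in a library for Eif4ebp1 and from 31 to 117 for Eif2b3. The part of depth in the width of their intervals was not tested.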
